A study of Homo sapiens with 12 samples.

Results

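Levels of 42 genes of homologous recombination and the Fanconi anaemia pathway were compared in MCF10-A, a human line of breast epithelial cells that does not form tumours. The 42 genes were chosen by name as known members of these pathways, out of 57133 gene names in the count files. The rule uses no measured value, but the list was drawn up with earlier results of these data known. Of them 41 had enough counts to be tested, and TOP3A did not. All cells carried a transgene under a promoter switched on by doxycycline, and all were kept in doxycycline at 50 ng/ml until day 5. The first group made mVenus, a yellow fluorescent protein, fused to p16 and received Torin2, an inhibitor of the kinase mTOR, at 100 nM. The second made mVenus fused to p21. The third made mVenus fused to p16 without Torin2, with the solvent DMSO instead. The fourth, called mVenus, made the fluorescent protein alone. The p21 and mVenus cells received no Torin2, and whether they received DMSO is not stated here. Treatment is given as 24 h after induction for all 4 groups. Each group had 3 libraries, described as biological replicates, of cells at passages 12 to 15. The labels do not say whether a transgenic line is a single clone. The series addresses DNA damage and DNA repair in senescent cells.

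Homologous recombination repairs a broken chromosome by copying the sister chromatid, and so works mainly in S and G2 phase. The ends are first cut back to single strands, which RPA coats. BRCA1, PALB2 and BRCA2 then prepare the strands for the search for a matching sequence, and helicases and nucleases take the joined molecules apart. The Fanconi anaemia pathway handles crosslinks between the DNA strands: a core ubiquitin ligase marks the FANCD2 and FANCI pair, and the break made at the crosslink is passed on to recombination. Both p16 and p21 inhibit cyclin-dependent kinases and keep the RB proteins active, which hold back the E2F transcription factors of S-phase genes.

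Libraries held 13168749 to 18321114 assigned counts. The lowest correlation of log2 CPM within a group was 0.9918 and the highest between groups 0.9643, so no library stood with another group. A level is a mean CPM, the count after scaling to a common library size, and is printed as mean ± SD of n = 3 libraries. Differences are log2 fold changes ± SE from the quasi-likelihood test of edgeR. A gene "rose" or "fell" where its p, adjusted by the Benjamini-Hochberg method over all 14504 genes tested, was under 0.05. Apart from BRCA1, BRCA2, FANCD2 and FANCI, genes printed library by library were chosen among those whose groups did not overlap. Their lack of overlap was a condition of the choice, and the share of all genes without overlap was not computed. The transgene could not be checked through CDKN2A, the p16 gene, which had 0 counts in all 12 libraries. CDKN1A, the p21 gene, had 259 ± 17 CPM in p16 cells with Torin2, 889 ± 16.5 in p21 cells, 570 ± 30.1 in p16 cells and 712 ± 13 in mVenus cells. The proliferation gene MKI67 had 51.6 ± 0.647, 3.35 ± 0.425, 10.1 ± 0.427 and 331 ± 15.6 CPM in the same 4 groups. Summed over 6 breast epithelial markers, levels ranged over 2902 to 3033 CPM in p16 cells with Torin2, 5393 to 5621 in p21 cells, 8929 to 9350 in p16 cells and 3406 to 3538 in mVenus cells. The markers did not move together. Against mVenus cells all 6 rose in p16 cells, and 3 rose and 1 fell in p21 cells. In p16 cells with Torin2, 2 rose and 4 fell against mVenus cells. Leukocyte markers summed to at most 38.6 CPM and endothelial markers to at most 4.68 CPM in any library. Fibroblast markers summed to 111 to 117 CPM in p21 cells and to at most 20.3 CPM elsewhere, of which DCN made up 109 ± 2.24 CPM in p21 cells and 10.7 ± 0.988 in mVenus cells. COL1A1, the other tested marker of that list, was lower in p21 cells, with 3.86 ± 0.761 CPM in p21 cells and 9.15 ± 0.878 in mVenus cells.

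As examples, the promoters of the 3 genes that fell most in both p16 and p21 cells, and of the 2 genes that rose in p16 cells, are shown first. The rise of MRE11, 1 of these 2, was lost in 10 of 12 alternative analyses described below. The 250 bases before the start of each gene are those of the RefSeq table on GRCh38.p14, written along the strand of the gene. Capitals mark matches on either strand to the E2F core (TTCCCGC, with the variants TTCGCGC, then TTGCCGC, and also TTGGCGC) and to the CCAAT box (CCAAT).
BLM, chr15:90717096-90717345, plus strand: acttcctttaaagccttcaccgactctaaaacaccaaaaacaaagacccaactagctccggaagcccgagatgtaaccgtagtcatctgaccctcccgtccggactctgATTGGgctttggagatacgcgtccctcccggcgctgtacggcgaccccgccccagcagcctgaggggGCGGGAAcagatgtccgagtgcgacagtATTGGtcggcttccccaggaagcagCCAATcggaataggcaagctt
RAD54L, chr1:46247438-46247687, plus strand: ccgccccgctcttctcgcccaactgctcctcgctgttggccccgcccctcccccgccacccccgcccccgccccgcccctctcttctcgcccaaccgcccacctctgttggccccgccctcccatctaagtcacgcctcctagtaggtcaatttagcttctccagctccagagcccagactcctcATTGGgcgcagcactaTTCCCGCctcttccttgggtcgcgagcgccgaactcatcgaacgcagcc
EME1, chr17:50372979-50373228, plus strand: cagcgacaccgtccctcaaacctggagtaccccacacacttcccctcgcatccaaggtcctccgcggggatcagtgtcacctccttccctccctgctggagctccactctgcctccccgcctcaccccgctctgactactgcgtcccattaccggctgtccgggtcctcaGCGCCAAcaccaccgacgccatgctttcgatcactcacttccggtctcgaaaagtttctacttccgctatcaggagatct
FANCF, chr11:22625824-22626073, minus strand: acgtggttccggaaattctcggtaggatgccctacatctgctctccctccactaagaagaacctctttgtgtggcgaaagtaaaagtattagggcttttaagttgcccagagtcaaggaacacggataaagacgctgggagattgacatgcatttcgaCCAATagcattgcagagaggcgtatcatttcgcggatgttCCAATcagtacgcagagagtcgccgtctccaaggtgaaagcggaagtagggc
MRE11, chr11:94493845-94494094, minus strand: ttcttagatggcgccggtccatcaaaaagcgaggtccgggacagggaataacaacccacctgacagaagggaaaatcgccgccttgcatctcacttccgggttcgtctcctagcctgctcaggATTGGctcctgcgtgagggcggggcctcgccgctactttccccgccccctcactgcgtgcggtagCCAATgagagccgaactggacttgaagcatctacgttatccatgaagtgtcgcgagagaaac

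In these 250 bases the E2F core was matched in BLM at 74 bases before the start, in RAD54L at 49 and in EME1 at 80, and not in FANCF or MRE11. After the start, FANCF had a match at 2 bases and BLM had further matches at 4 and 23. The table held 34 of the 42 genes, with a window of 250 bases before to 50 after the start. Of the 34, 10 had 2 windows for 2 starts, and a gene counted as matched if either window matched. From its second start the RAD54L match lies at 124 bases. The E2F core was present in 22 of these 34 (64.7%), against 4169 of 27305 genes of the table (15.3%). The table holds more genes than the 14504 tested here, and no share over the tested genes was computed. Nor were genes matched for the base composition of their promoters, so these shares do not show that the core is particular to the pathway. It was present in every window of a gene in 18 of 34 (52.9%), against 10.9% of all genes. It was present in 15 of 19 genes (78.9%) that fell 2-fold or more in p21 cells and in 6 of the 14 other tested genes (42.9%). These genes were split by their own fold changes. No such share was computed over all genes that fell 2-fold or more, so the difference is a description of few genes. The CCAAT box was found in 16 of 34 (47.1%), against 39.7% of all genes in the table, and the cell cycle homology region (TTTGAA) in 3 of 34 (8.82%), against 18.2%. BRCA2, RAD51C and FANCB, which fell 2-fold or more in p21 cells, had no match to any of these letters. The motifs were chosen after the values were seen, an E2F core TTGGCGC can overlap a reversed CCAAT box, and a match describes letters in a window and not a bound site.

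In p16 cells most of the pathway was lower than in mVenus cells. Of 41 tested genes 32 fell (78%, against 32.8% of all genes tested) and 2 rose (4.88%, against 30.9%). The median log2 fold change was -0.87 for the 41 genes and 0.00 for all genes. By 2-fold or more 18 genes fell, where 9.35% of all genes did. BLM, RAD54L and EME1 fell most, to 9.29%, 9.12% and 11.2% of their mVenus means. PALB2, RAD50, RPA2, RAD51B, RAD52, WRN and SLX4 were not called.

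**Figure D1:**
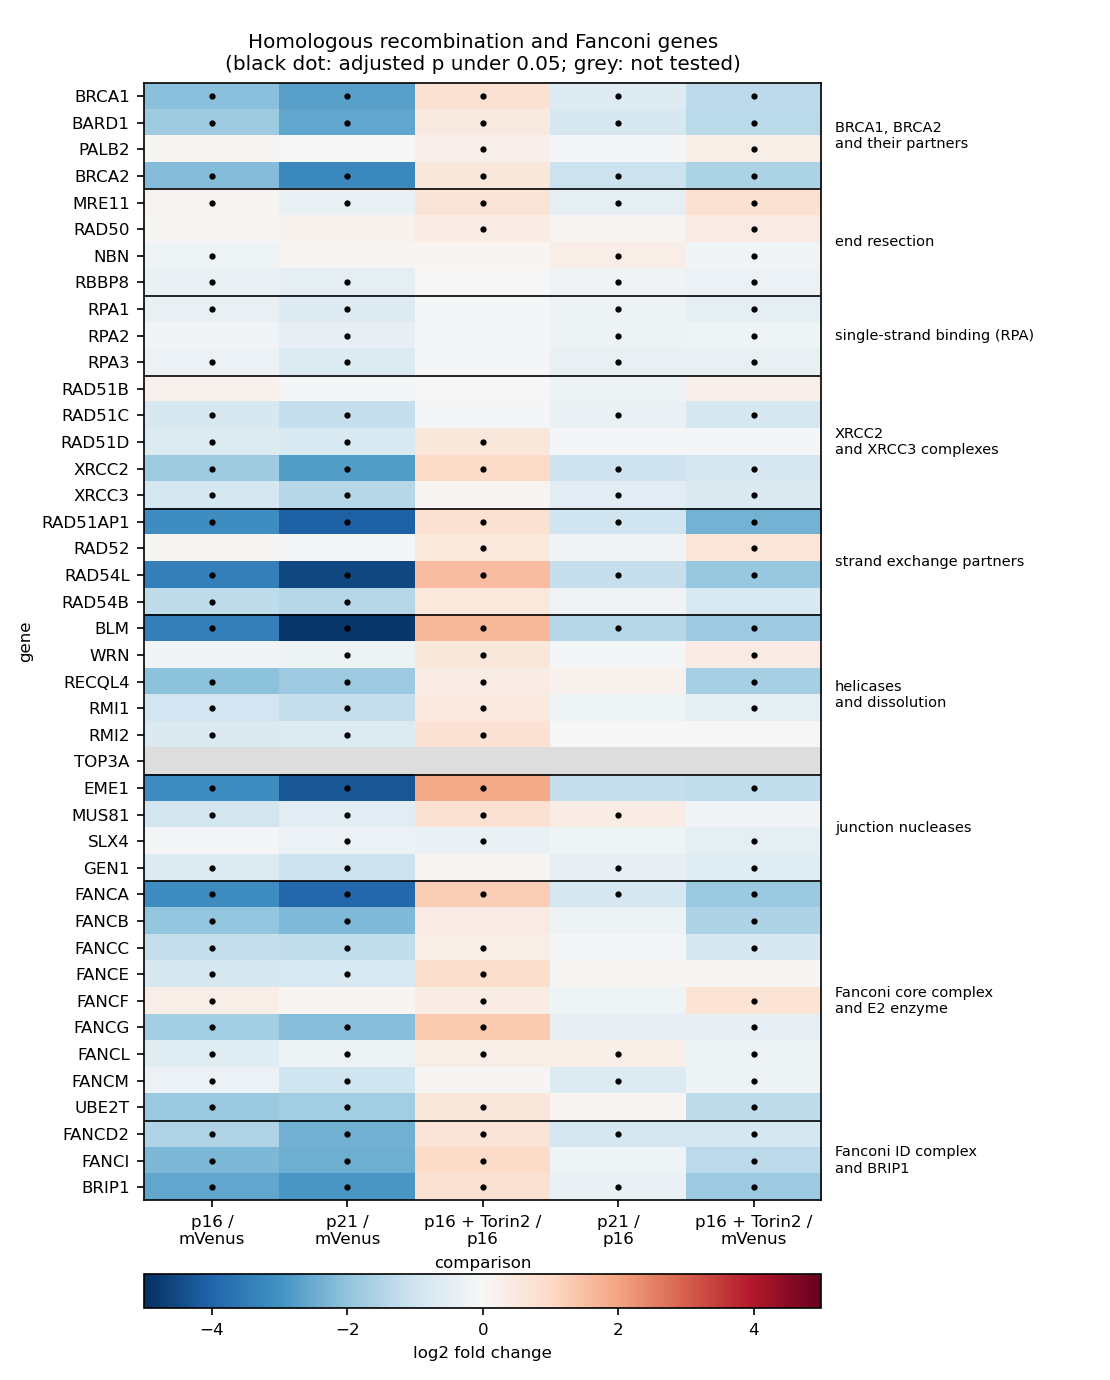
Log2 fold change (colour) of the 42 genes (rows, grouped by role) in 5 comparisons (columns), with a black dot where the adjusted p was under 0.05 and grey where TOP3A was not tested. The 3 columns against mVenus cells are mostly blue (29 genes fell in p16 cells with Torin2, 35 in p21 cells and 32 in p16 cells), and the column of Torin2 in p16 cells is mostly red (28 rose).

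BRCA1 forms with BARD1 a ubiquitin ligase at breaks. It had 11.3, 11.5 and 11 CPM in p16 cells, against 47.7, 46.5 and 48.6 CPM in mVenus cells. All p16 libraries lay below all mVenus libraries, and BRCA1 fell 4.24-fold (-2.08 ± 0.06, edgeR adjusted p = 1.75e-16). BRCA2, a mediator of strand exchange, had 4.68, 6.13 and 6.98 CPM in p16 cells, against 27.2, 25.3 and 25.9 CPM in mVenus cells. The groups did not overlap and BRCA2 fell by 2.15 ± 0.12 on the log2 scale (edgeR adjusted p = 3.31e-12). BARD1 fell as well, by 1.78 ± 0.11. PALB2, the protein that joins BRCA1 to BRCA2, was the exception among these 4 genes, with 24 ± 0.731 CPM in p16 cells and 22.9 ± 0.542 in mVenus cells (0.07 ± 0.07, edgeR adjusted p = 0.374).

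The 4 listed genes of end resection, MRE11, RAD50, NBN and RBBP8 (the protein CtIP), differed little. This does not hold for all of resection, since the resection nuclease EXO1, 1 of the partner genes described below, fell by 4.06 ± 0.10. The nuclease MRE11 had 30.9, 31.2 and 30.8 CPM in p16 cells, against 27.4, 29 and 28.3 CPM in mVenus cells. Its rise of 0.13 ± 0.06 (edgeR adjusted p = 0.0463) was lost in 10 of 12 alternatives, among them leaving out any 1 of the 6 libraries (adjusted p = 0.0239 to 0.154 over the alternatives). RBBP8 fell by 0.32 ± 0.06 and NBN by 0.23 ± 0.05, and RAD50 had 0.05 ± 0.09. Of the RPA subunits, which bind single strands, RPA1 fell by 0.37 ± 0.05 and RPA3 by 0.29 ± 0.09, and RPA2 had -0.12 ± 0.05 (edgeR adjusted p = 0.0554). Without p16 replicate 1 the fall of RPA3 was no longer called (adjusted p = 0.0717, range over alternatives 0.00179 to 0.0717).

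RAD51B, RAD51C, RAD51D, XRCC2 and XRCC3 form small complexes that assist strand exchange. XRCC2 fell most, by 1.77 ± 0.15, followed by XRCC3 (-0.87 ± 0.14), RAD51C (-0.81 ± 0.09) and RAD51D (-0.68 ± 0.11). RAD51B was not called and had 3.17 ± 0.362 CPM in p16 cells and 2.7 ± 0.0284 in mVenus cells. For XRCC3, 76.7% of the exonic bases are shared with other genes, with KLC1 the most, so its counts are uncertain.

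Among the partners of strand exchange, RAD54L, a DNA motor protein, had 0.748, 0.329 and 0.542 CPM in p16 cells, against 5.97, 5.4 and 6.37 CPM in mVenus cells. It fell 10.8-fold (-3.43 ± 0.24, edgeR adjusted p = 1.39e-10) without overlap of the groups, on 25 counts over the p16 libraries. RAD51AP1, which promotes strand pairing, fell by 3.10 ± 0.19. RAD54B, a relative of RAD54L, fell by 1.27 ± 0.43 on few counts, with overlapping libraries. Its log2 fold change was -2.15 without p16 replicate 2. The call did not hold without mVenus replicate 3 (adjusted p = 0.128), p16 replicate 1 (0.0567) or p16 replicate 3 (0.0808; range over alternatives 0.000916 to 0.128). RAD52, which anneals single strands, had 0.07 ± 0.13 and was not called.

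BLM, the Bloom syndrome helicase that dissolves double Holliday junctions with TOP3A, RMI1 and RMI2, had 1.31, 1.51 and 1.69 CPM in p16 cells, against 16.6, 13.9 and 18.1 CPM in mVenus cells. It fell 10.8-fold (-3.43 ± 0.16, edgeR adjusted p = 1.99e-13). Its partners fell less, RMI1 by 0.95 ± 0.10 and RMI2 by 0.72 ± 0.13. RECQL4, another helicase of the family, fell by 2.04 ± 0.08, and WRN, the Werner syndrome helicase, had -0.15 ± 0.08. The topoisomerase TOP3A had 0 to 18 counts per library in all 12 libraries and no test.

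EME1, the partner of the junction nuclease MUS81, had 0.312, 0.461 and 0.135 CPM in p16 cells, against 2.99, 2.56 and 2.56 CPM in mVenus cells. It fell 8.7-fold (-3.12 ± 0.34, edgeR adjusted p = 9.76e-08), on 14 counts over the p16 libraries. MUS81 itself fell by 0.91 ± 0.08 and the resolvase GEN1 by 0.68 ± 0.08. The nuclease scaffold SLX4 had 15.4 ± 1.27 CPM in p16 cells and 16.7 ± 1.82 in mVenus cells and was not called.

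In the Fanconi core complex and its conjugating enzyme 8 of 9 genes fell. FANCA fell most (-3.09 ± 0.11), then FANCB (-1.95 ± 0.20), UBE2T, the conjugating enzyme (-1.84 ± 0.08), FANCG (-1.72 ± 0.14) and FANCC (-1.14 ± 0.08). FANCE (-0.82 ± 0.12), the ligase subunit FANCL (-0.62 ± 0.09) and the translocase FANCM (-0.30 ± 0.10) fell by less than 2-fold. The call of FANCM was lost without p16 replicate 1 (adjusted p = 0.0651, range over alternatives 0.00314 to 0.0651). FANCF, an adaptor of the core complex, went the other way, with 12.5, 13.1 and 15.4 CPM in p16 cells, against 11.2, 9.64 and 11.7 CPM in mVenus cells. It rose by 0.32 ± 0.09 (edgeR adjusted p = 0.00547) and the libraries did not overlap.

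Both substrates of the core complex fell. FANCD2 had 6.36, 8.96 and 6.5 CPM in p16 cells, against 19.3, 22 and 21.6 CPM in mVenus cells. FANCI had 11, 12.1 and 10.1 CPM in p16 cells, against 52.1, 52.5 and 54 CPM in mVenus cells. Neither gene's groups overlapped, and FANCD2 fell by 1.52 ± 0.12 (edgeR adjusted p = 4.66e-10) and FANCI by 2.26 ± 0.06 (adjusted p = 4.4e-17). BRIP1, the helicase that binds BRCA1, fell by 2.58 ± 0.08.

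All 20 markers of proliferating cells fell in p16 cells, with a median log2 fold change of -3.14. Their summed level was 302 to 321 CPM in p16 cells, against 1720 to 1835 CPM in mVenus cells. The part of these markers in the lower levels of the repair genes was not tested. In RNA from whole cultures, fewer cells that express a gene and less of its RNA per cell cannot be told apart.

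**Figure D2:**
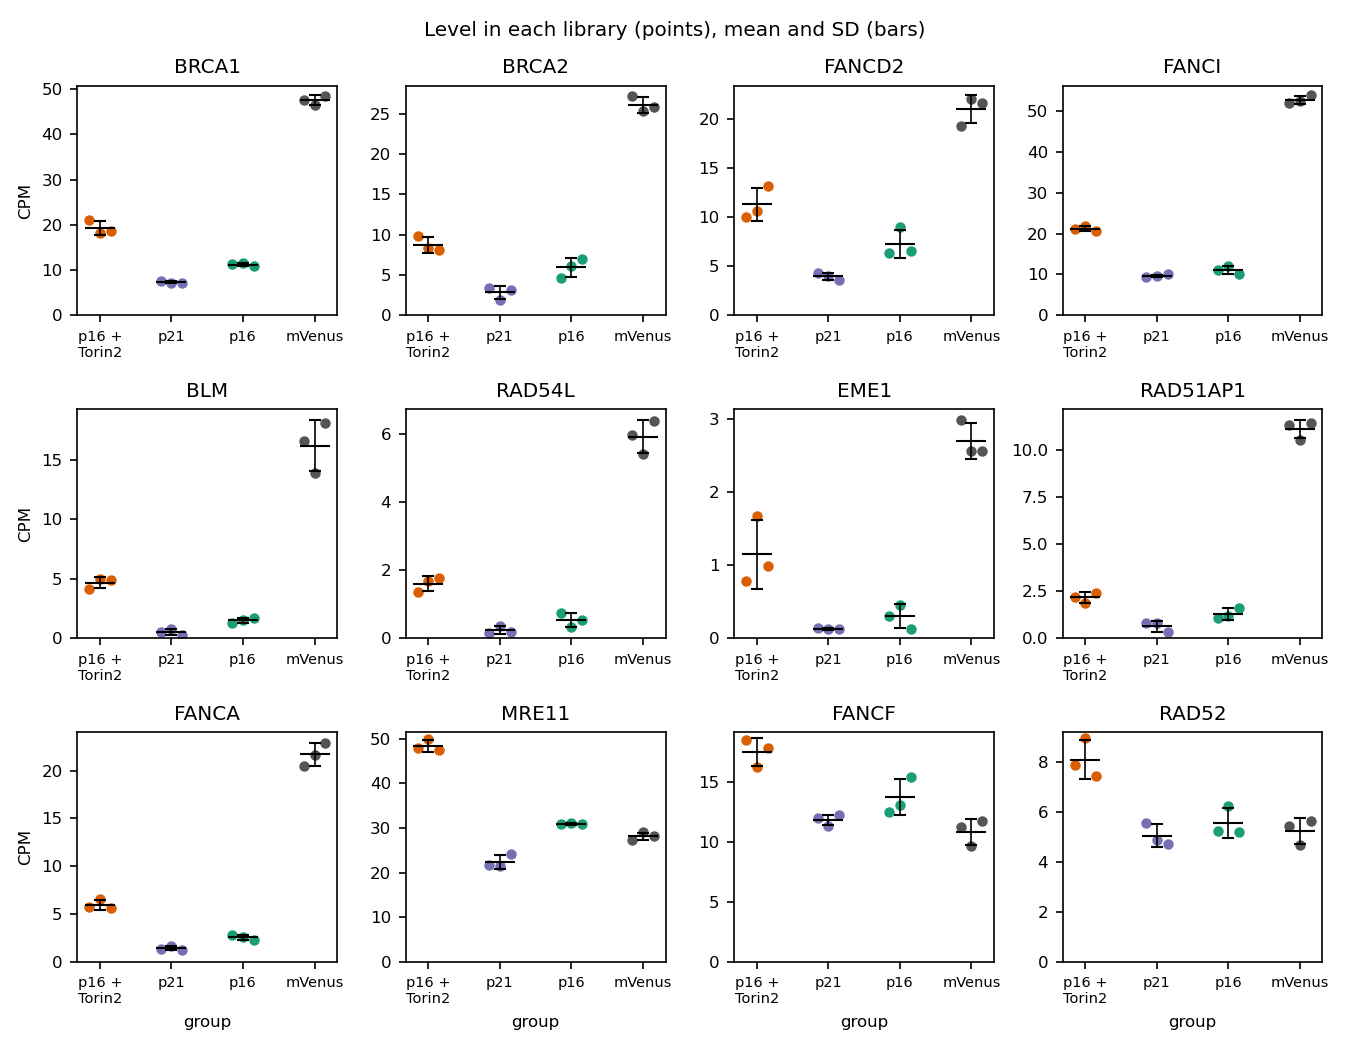
CPM of 12 genes (one panel each, own scale from 0) in each library (points) of p16 cells with Torin2, p21, p16 and mVenus cells, with the mean and SD (bars) of the 3 libraries of a group. For BRCA1, BLM, RAD54L, EME1 and FANCI all mVenus points lie above all others; for MRE11 and RAD52 the points of p16 cells with Torin2 lie highest.

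In p21 cells the pathway stood lower still. Against mVenus cells 35 of 41 genes fell (85.4%), where 28.3% of all genes tested did. None of the 41 rose at an adjusted p under 0.05 with edgeR, 0 were higher at an unadjusted p under 0.05 and 0 with DESeq2, where 28.2% of all genes tested rose with edgeR. The median log2 fold change was -1.15 (0.00 over all genes), and 22 genes fell by 2-fold or more, where 6.49% of all genes did. This comparison uses the same mVenus libraries as that of p16 cells.

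BLM had 0.514, 0.805 and 0.319 CPM in p21 cells (25 counts in all), against 16.6, 13.9 and 18.1 CPM in mVenus cells. It fell 29.2-fold (-4.87 ± 0.20, edgeR adjusted p = 2.15e-14), to 3.37% of the mVenus mean. RAD54L had 0.147, 0.371 and 0.191 CPM in p21 cells (11 counts in all), against 5.97, 5.4 and 6.37 CPM in mVenus cells. It fell by 4.57 ± 0.29 (edgeR adjusted p = 2.22e-11), without overlap. EME1 was hardly present, with 0.147, 0.124 and 0.127 CPM in p21 cells (6 counts in all), against 2.99, 2.56 and 2.56 CPM in mVenus cells (-4.28 ± 0.40, edgeR adjusted p = 1.54e-08). RAD51AP1 (-4.10 ± 0.21, on 29 counts in p21 cells) and FANCA (-3.92 ± 0.13) came next.

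BRCA1 had 7.48, 7.06 and 7.2 CPM in p21 cells, against 47.7, 46.5 and 48.6 CPM in mVenus cells. BRCA2 had 3.38, 1.92 and 3.19 CPM in p21 cells, against 27.2, 25.3 and 25.9 CPM in mVenus cells. All p21 libraries lay below all mVenus libraries for both, and BRCA1 fell by 2.72 ± 0.07 (edgeR adjusted p = 1.41e-17) and BRCA2 by 3.22 ± 0.14 (adjusted p = 6.43e-14). BARD1 fell by 2.58 ± 0.13, and PALB2 had -0.02 ± 0.07.

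FANCD2 had 4.33, 3.96 and 3.63 CPM in p21 cells, against 19.3, 22 and 21.6 CPM in mVenus cells. FANCI had 9.32, 9.59 and 10 CPM in p21 cells, against 52.1, 52.5 and 54 CPM in mVenus cells. The groups did not overlap, and FANCD2 fell by 2.40 ± 0.13 (edgeR adjusted p = 2.88e-12) and FANCI by 2.45 ± 0.07 (adjusted p = 2.44e-17). BRIP1 fell by 2.90 ± 0.09. In the core complex and its conjugating enzyme 8 of 9 genes fell, among them FANCB (-2.21 ± 0.20), FANCG (-2.14 ± 0.15) and UBE2T (-1.74 ± 0.08), and FANCF had 0.11 ± 0.10.

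Among the other groups, all 3 RPA subunits fell, by 0.40 (RPA2) to 0.67 (RPA3) on the log2 scale. RBBP8 fell by 0.48 ± 0.06 and MRE11 by 0.33 ± 0.06, whereas RAD50 had 0.18 ± 0.09 and NBN 0.09 ± 0.05. Of the 5 genes of the XRCC2 and XRCC3 complexes, XRCC2 (-2.79 ± 0.17), XRCC3 (-1.41 ± 0.15), RAD51C (-1.15 ± 0.09) and RAD51D (-0.78 ± 0.11) fell, and RAD51B had -0.04 ± 0.24. All 5 tested genes of the helicase and dissolution group fell, RECQL4 by 1.82 ± 0.08, RMI1 by 1.18 ± 0.10 and RMI2 by 0.70 ± 0.13. GEN1 fell by 1.08 ± 0.09 and MUS81 by 0.54 ± 0.08. FANCC (-1.24 ± 0.08), FANCM (-0.99 ± 0.10) and FANCE (-0.75 ± 0.12) fell, and RAD52 had -0.07 ± 0.13.

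The calls of WRN, SLX4, FANCL and RAD54B in p21 cells did not hold in all alternatives. WRN (-0.24 ± 0.08) was not called without mVenus replicate 1, mVenus replicate 3, p21 replicate 2 or p21 replicate 3 (adjusted p = 0.0909 to 0.112, range over alternatives 0.0024 to 0.112). SLX4 (-0.31 ± 0.10) lost its call without mVenus replicate 2 (0.0687) or p21 replicate 3 (0.0532; range 0.00439 to 0.0687). FANCL (-0.27 ± 0.09) lost it without mVenus replicate 3 (0.127), without p21 replicate 3 (0.0741) and with DESeq2 (0.0587; range 0.00585 to 0.127). RAD54B (-1.43 ± 0.45) lost it without mVenus replicate 3 (0.089) or p21 replicate 3 (0.0534; range 0.000862 to 0.089). Without p21 replicate 3, RAD50 was called higher in p21 cells (0.30, adjusted p = 0.00616, range 0.00616 to 0.369). All 20 proliferation markers fell in p21 cells, with a median of -3.50 and a summed level of 240 to 250 CPM, against 1720 to 1835 CPM in mVenus cells, and their part in the result was not tested.

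Set directly against p16 cells, p21 cells had lower levels of 19 of the 41 genes (46.3%), where 27.2% of all genes tested were lower. Levels of 3 genes were higher (7.32%), where 27.2% of all genes were. The median log2 fold change was -0.27 (-0.01 over all genes). By 2-fold or more 5 of the 41 genes were lower, where 5.12% of all genes were. Among the 5, the calls of RAD54L and RAD51AP1 were lost in alternatives given below. BLM, BRCA2 and XRCC2 had the largest falls without overlap of the libraries.

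BLM had 0.514, 0.805 and 0.319 CPM in p21 cells, against 1.31, 1.51 and 1.69 CPM in p16 cells (-1.44 ± 0.31, edgeR adjusted p = 0.00056). BRCA2 had 3.38, 1.92 and 3.19 CPM in p21 cells, against 4.68, 6.13 and 6.98 CPM in p16 cells (-1.08 ± 0.18, edgeR adjusted p = 4.37e-05). XRCC2 had 1.17, 0.928 and 1.47 CPM in p21 cells, against 2.25, 2.77 and 2.24 CPM in p16 cells (-1.02 ± 0.21, edgeR adjusted p = 0.000365). In each of the 3 genes every p21 library lay below every p16 library, as the choice of these genes required. BRCA1 was lower too, with 7.48, 7.06 and 7.2 CPM in p21 cells, against 11.3, 11.5 and 11 CPM in p16 cells (-0.64 ± 0.09, edgeR adjusted p = 4.25e-06).

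FANCD2 fell, with 4.33, 3.96 and 3.63 CPM in p21 cells, against 6.36, 8.96 and 6.5 CPM in p16 cells (-0.87 ± 0.16, edgeR adjusted p = 9.26e-05). Its partner FANCI had 9.32, 9.59 and 10 CPM in p21 cells, against 11, 12.1 and 10.1 CPM in p16 cells, and was not called (-0.20 ± 0.08, edgeR adjusted p = 0.0629, and 0.0272 without p16 replicate 3; range over alternatives 0.0272 to 0.317). FANCA (-0.83 ± 0.19), FANCM (-0.70 ± 0.11), BARD1 (-0.80 ± 0.15), MRE11 (-0.46 ± 0.06) and GEN1 (-0.40 ± 0.09) fell. So did XRCC3 (-0.55 ± 0.17), RAD51C (-0.34 ± 0.10) and all 3 RPA subunits (RPA1 -0.27 ± 0.05, RPA2 -0.27 ± 0.06, RPA3 -0.38 ± 0.10).

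The 3 genes that stood higher in p21 than in p16 cells were MUS81, FANCL and NBN. MUS81 had 18.5, 21.1 and 20.7 CPM in p21 cells, against 18.1, 13.8 and 14.9 CPM in p16 cells (0.37 ± 0.09, edgeR adjusted p = 0.00108). FANCL had 14.4, 15.2 and 13.4 CPM in p21 cells, against 10.9, 10.5 and 12.5 CPM in p16 cells (0.35 ± 0.10, edgeR adjusted p = 0.00415). NBN, which links the resection nuclease to damage signalling, had 123, 120 and 131 CPM in p21 cells, against 94.5, 99 and 107 CPM in p16 cells (0.32 ± 0.05, edgeR adjusted p = 3.83e-05). The libraries of the groups did not overlap for any of the 3.

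The 19 genes not called between p21 and p16 cells include EME1 (-1.16 ± 0.62, on 6 counts in p21 cells and 14 in p16 cells), PALB2, RAD50, RAD51B, RAD51D, RAD52, RAD54B, WRN, RECQL4, RMI1, RMI2 and SLX4. FANCB, FANCC, FANCE, FANCF, FANCG, UBE2T and FANCI complete them. The remaining calls between p21 and p16 cells were weak. RAD51AP1 (2-fold lower) lost its call without p21 replicate 3 (adjusted p = 0.0895, range over alternatives 0.00654 to 0.0895). RAD54L (-1.14 ± 0.44, libraries overlapping) lost it in 6 of 11 alternatives, among them the removal of p16 replicate 1 (0.228) or 3 (0.0623) or p21 replicate 1 (0.137) or 3 (0.119; range 0.0164 to 0.228). RBBP8 (-0.16 ± 0.06) lost it in 6 of 12, among them without p16 replicate 2 (0.132) or 3 (0.0588) and p21 replicate 1 (0.164) or 2 (0.12; range 0.0106 to 0.164). BRIP1 (-0.32 ± 0.12) lost it in 7 of 12, among them without p16 replicate 1 (0.0702) or 3 (0.168) and p21 replicate 1 (0.108) or 2 (0.0878; range 0.0257 to 0.168). Of the 20 proliferation markers 14 were lower and 4 higher in p21 than in p16 cells (median -0.60), and their part in the result was not tested.

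Torin2 went with higher levels of the pathway in p16 cells. Against p16 cells without Torin2, 28 of 41 genes rose (68.3%), where 30.3% of all genes tested did, and 1 fell (2.44%), where 29% did. The median log2 fold change was 0.52 (0.02 over all genes). By 2-fold or more 5 genes rose, EME1, BLM, RAD54L, FANCG and FANCA, where 4.7% of all genes did.

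EME1 had 0.782, 1.68 and 0.984 CPM in p16 cells with Torin2, against 0.312, 0.461 and 0.135 CPM in p16 cells. BLM had 4.17, 4.98 and 4.92 CPM with Torin2, against 1.31, 1.51 and 1.69 CPM in p16 cells. RAD54L had 1.37, 1.68 and 1.77 CPM with Torin2, against 0.748, 0.329 and 0.542 CPM in p16 cells. In all 3 genes each Torin2 library lay above each p16 library, and EME1 rose by 1.89 ± 0.40 (edgeR adjusted p = 0.000356), BLM by 1.64 ± 0.20 (4.91e-07) and RAD54L by 1.55 ± 0.30 (0.000148). FANCG rose by 1.31 ± 0.15 and FANCA by 1.22 ± 0.14.

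BRCA1 had 21, 18.2 and 18.7 CPM in p16 cells with Torin2, against 11.3, 11.5 and 11 CPM in p16 cells (0.78 ± 0.07, edgeR adjusted p = 1.59e-08). BRCA2 had 9.9, 8.34 and 8.06 CPM with Torin2, against 4.68, 6.13 and 6.98 CPM in p16 cells (0.57 ± 0.14, edgeR adjusted p = 0.002). Neither gene's libraries overlapped between the groups, and PALB2 (0.24 ± 0.07) rose as well. BARD1 (0.44 ± 0.13) also rose, but not without replicate 1 of the p16 cells with Torin2 (adjusted p = 0.0578, range over alternatives 0.00355 to 0.0578).

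FANCD2 had 10, 10.6 and 13.2 CPM in p16 cells with Torin2, against 6.36, 8.96 and 6.5 CPM in p16 cells (0.63 ± 0.13, edgeR adjusted p = 0.000282). FANCI had 21.2, 21.8 and 20.6 CPM with Torin2, against 11, 12.1 and 10.1 CPM in p16 cells (0.94 ± 0.07, edgeR adjusted p = 7.89e-10). Both rose without overlap, as did BRIP1 (0.78 ± 0.10). In the core complex and its conjugating enzyme 7 of 9 genes rose, with FANCE (0.88 ± 0.12) and UBE2T (0.56 ± 0.09) after FANCG and FANCA and then FANCF (0.36 ± 0.09), FANCC (0.35 ± 0.09) and FANCL (0.34 ± 0.10). FANCB (0.40 ± 0.23) and FANCM (0.05 ± 0.10) were not called.

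All 5 tested genes of the helicase and dissolution group rose, with RMI2 (0.71 ± 0.13), WRN (0.57 ± 0.08), RMI1 (0.49 ± 0.11) and RECQL4 (0.37 ± 0.09) after BLM. XRCC2 (0.94 ± 0.16), RAD51D (0.57 ± 0.11), RAD51AP1 (0.75 ± 0.24), RAD52 (0.54 ± 0.12), MUS81 (0.76 ± 0.08) and MRE11 (0.65 ± 0.05) rose too. So did RAD50 (0.37 ± 0.09), whose exonic bases are shared with other genes to 79.7%. RAD51B, RAD51C, XRCC3, RAD54B, NBN, RBBP8 and GEN1 were not called, nor were the RPA subunits, at -0.08 to -0.11. SLX4 was the 1 gene that fell, with 10.6, 13.3 and 13.1 CPM in p16 cells with Torin2, against 14, 15.9 and 16.4 CPM in p16 cells (-0.32 ± 0.10, edgeR adjusted p = 0.0104). Its call was lost without replicate 1 of the p16 cells with Torin2 (adjusted p = 0.0746, range over alternatives 0.00167 to 0.0746).

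Of the 20 proliferation markers 18 rose and 1 fell with Torin2 (median 0.99). Their summed level was 546 to 567 CPM in p16 cells with Torin2, against 302 to 321 CPM in p16 cells, and their part in the result was not tested.

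Most genes were also lower with Torin2 than in mVenus cells. In p16 cells with Torin2 29 of 41 genes (70.7%) were lower than in mVenus cells, where 36.1% of all genes tested were. Another 6 (14.6%) were higher, where 31.2% of all genes were. The median log2 fold change was -0.48 (-0.03 over all genes), and 13 genes were lower by 2-fold or more, where 9.9% of all genes were. These libraries also enter the comparison with p16 cells, and the mVenus libraries those of p16 and p21 cells.

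**Figure D3:**
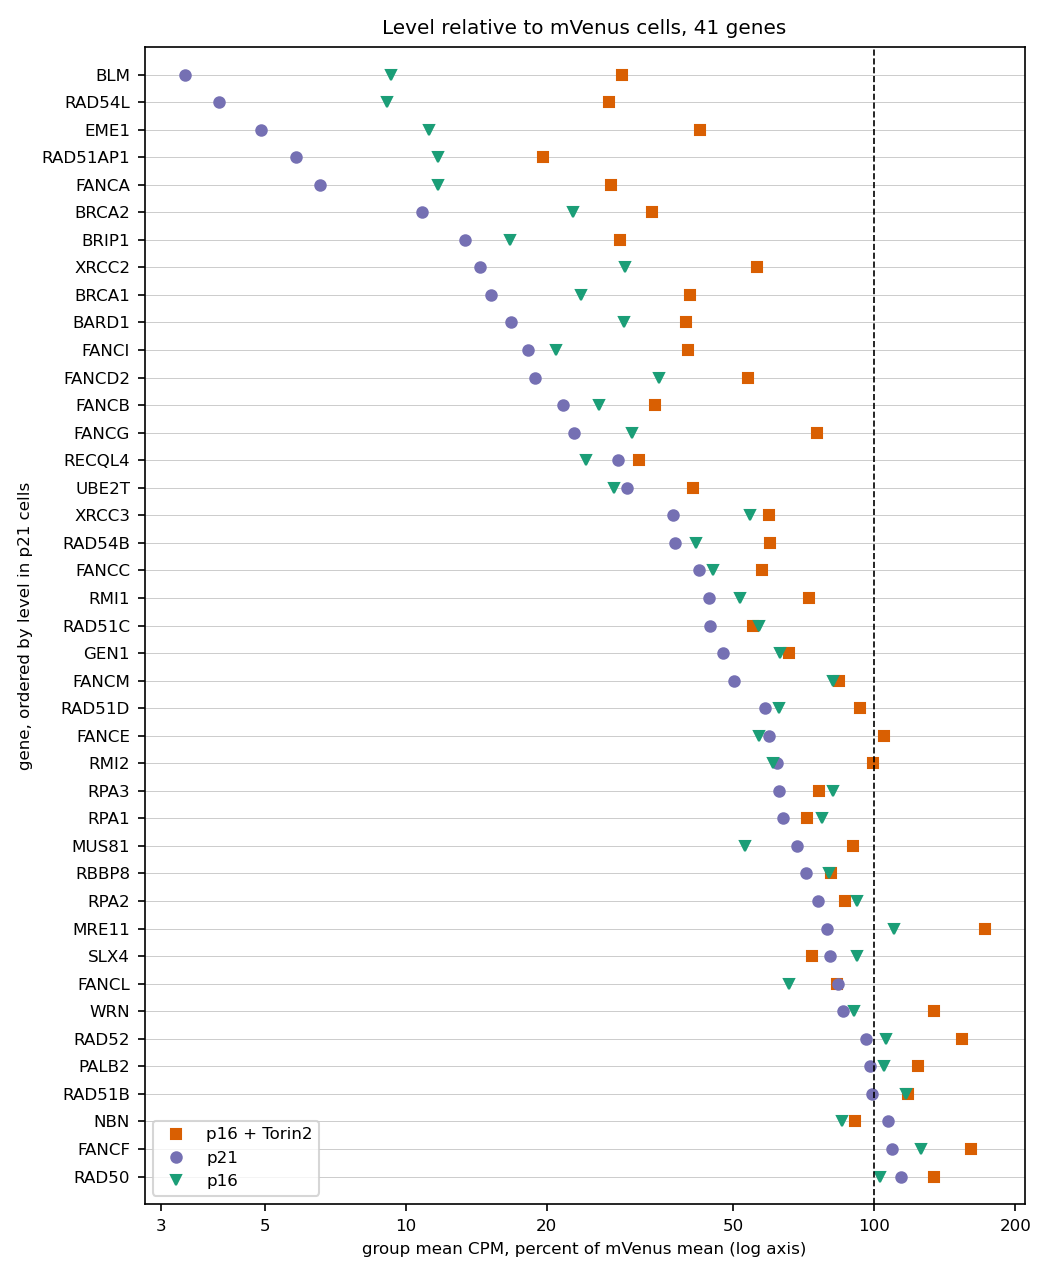
Group mean CPM as percent of the mVenus mean (log axis; dashed line at 100) for 41 genes ordered by their level in p21 cells, in p16 cells with Torin2 (squares), p21 cells (circles) and p16 cells (triangles). BLM stood at 28.9%, 3.37% and 9.29%, and MRE11 at 172%, 79.4% and 110%, in these 3 groups.

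RAD51AP1 had 2.21, 1.87 and 2.43 CPM in p16 cells with Torin2, against 11.3, 10.5 and 11.4 CPM in mVenus cells (-2.35 ± 0.17, edgeR adjusted p = 1.54e-10). RAD54L had 1.37, 1.68 and 1.77 CPM with Torin2, against 5.97, 5.4 and 6.37 CPM in mVenus cells (-1.88 ± 0.20, edgeR adjusted p = 6.26e-08). FANCA had 5.67, 6.53 and 5.64 CPM with Torin2, against 20.5, 21.6 and 22.9 CPM in mVenus cells (-1.87 ± 0.10, edgeR adjusted p = 9.25e-13). These 3 had the largest falls, and their libraries did not overlap.

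BRCA1 (-1.31 ± 0.06, edgeR adjusted p = 8.4e-14) and BRCA2 (-1.58 ± 0.11, adjusted p = 1.4e-10) stood at 40.5% and 33.6% of their mVenus means. FANCD2 (-0.89 ± 0.11, edgeR adjusted p = 4.17e-07) and FANCI (-1.32 ± 0.06, adjusted p = 4.61e-14) stood at 53.8% and 40.1%. BLM (-1.80 ± 0.13), BRIP1 (-1.80 ± 0.07), RECQL4 (-1.67 ± 0.08), FANCB (-1.55 ± 0.19), BARD1 (-1.34 ± 0.11), UBE2T (-1.28 ± 0.08) and EME1 (-1.23 ± 0.27) were lower as well. Smaller falls were those of RAD51C (-0.85 ± 0.09), XRCC2 (-0.84 ± 0.14), FANCC (-0.79 ± 0.08), XRCC3 (-0.73 ± 0.14), GEN1 (-0.61 ± 0.08), RMI1 (-0.47 ± 0.09), SLX4 (-0.43 ± 0.10), RBBP8 (-0.31 ± 0.06) and the RPA subunits (-0.20 to -0.48). RAD51D, RMI2, FANCE, MUS81, RAD54B and RAD51B were not called.

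The genes above the mVenus level were led by MRE11, with 47.9, 50 and 47.6 CPM in p16 cells with Torin2, against 27.4, 29 and 28.3 CPM in mVenus cells (0.78 ± 0.05, edgeR adjusted p = 7.28e-11). FANCF had 18.5, 16.2 and 17.8 CPM with Torin2, against 11.2, 9.64 and 11.7 CPM in mVenus cells (0.68 ± 0.09, edgeR adjusted p = 1.32e-06). RAD52 had 7.88, 8.98 and 7.47 CPM with Torin2, against 5.45, 4.67 and 5.66 CPM in mVenus cells (0.61 ± 0.12, edgeR adjusted p = 0.000189). Each of the 3 was higher in every Torin2 library than in any mVenus library. WRN (0.42 ± 0.08), RAD50 (0.41 ± 0.09) and PALB2 (0.31 ± 0.07) were the others.

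The falls of NBN, FANCM, FANCG and FANCL in p16 cells with Torin2 did not hold in all alternatives. NBN (-0.14 ± 0.05, libraries overlapping) lost its call in 8 of 12 alternatives, among them without mVenus replicate 1 (adjusted p = 0.0838) or 2 (0.0697) and replicate 2 (0.135) or 3 (0.164) of the p16 cells with Torin2 (range 0.00222 to 0.164). FANCM (-0.25 ± 0.09) lost it in 5 of 12, among them without mVenus replicate 3 (0.0973) and replicate 2 (0.0731) or 3 (0.148) of the p16 cells with Torin2 (range 0.00422 to 0.148). Without mVenus replicate 3 the calls of FANCG (-0.41 ± 0.12, adjusted p = 0.07, range 0.000325 to 0.07) and FANCL (-0.27 ± 0.09, adjusted p = 0.0882, range 0.00353 to 0.0882) were lost. All 20 proliferation markers were lower in p16 cells with Torin2 than in mVenus cells (median -2.07), and their part in the result was not tested.

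Over the 4 groups, the mean level was highest in mVenus cells for 32 of the 41 genes, in p16 cells with Torin2 for 8 and in p21 cells for 1, which was NBN. It was lowest in p21 cells for 31, in p16 cells for 7, in mVenus cells for 2 and in p16 cells with Torin2 for 1. Summed over the 42 genes, the level was 731 ± 16.1 CPM in p16 cells with Torin2, 556 ± 3.07 in p21 cells, 601 ± 12 in p16 cells and 1013 ± 16.7 in mVenus cells. The ID complex with BRIP1 summed to 41.7 ± 1.18, 17.9 ± 0.214, 23.7 ± 1.94 and 106 ± 1.06 CPM in the same 4 groups. The 4 listed resection genes summed to 221 ± 10.8, 205 ± 7.67, 192 ± 6.28 and 218 ± 1.55 CPM, a far smaller spread between the groups. The resection nuclease EXO1 is not among them.

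Genes of a single complex differed in level per kilobase of exon. In CPM per kb, BLM had 0.702 ± 0.0675 in p16 cells with Torin2, 0.0818 ± 0.0367 in p21 cells, 0.226 ± 0.0288 in p16 cells and 2.43 ± 0.323 in mVenus cells. Its partner RMI2 had 1.64 ± 0.096, 1.03 ± 0.0632, 1.01 ± 0.0774 and 1.66 ± 0.0595 CPM per kb in the same groups, so that BLM had the higher level in mVenus cells and RMI2 in the other 3 groups. EME1 had 0.0403 ± 0.00375 CPM per kb in p21 cells and 0.82 ± 0.0753 in mVenus cells, whereas its partner MUS81 had 3.67 ± 0.257 in p21 cells and 5.37 ± 0.0514 in mVenus cells. BRCA1 stood at 0.789 ± 0.0237 CPM per kb in p21 cells and 5.18 ± 0.113 in mVenus cells, and PALB2 at 4.73 ± 0.309 in p21 cells and 4.82 ± 0.114 in mVenus cells. FANCI had more than FANCD2 in both, with 1.24 ± 0.0443 CPM per kb in p21 cells and 6.81 ± 0.127 in mVenus cells, where FANCD2 had 0.474 ± 0.0417 in p21 cells and 2.5 ± 0.171 in mVenus cells. Lengths are those of all annotated exons of a gene, whichever isoform is used.

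A further 48 genes that work beside these proteins were listed by name, also with earlier results of these data known, and 45 were tested. In p16 cells 26 fell (57.8%, against 32.8% of all genes tested) and 7 rose (15.6%, against 30.9%) relative to mVenus cells, with a median of -0.37. In p21 cells 23 fell (51.1%, against 28.3%) and 7 rose (15.6%, against 28.2%), with a median of -0.39. With Torin2, 19 rose (42.2%, against 30.3% of all genes) and 8 fell (17.8%, against 29%) relative to p16 cells, with a median of 0.16. Relative to mVenus cells 6 were higher (13.3%, against 31.2%) and 23 lower (51.1%, against 36.1%), with a median of -0.32. In p21 cells 7 were higher than in p16 cells (15.6%, against 27.2%) and 11 lower (24.4%, against 27.2%), with a median of -0.02, so that the lower share was near that of all genes. The resection nuclease EXO1 fell most in p16 and in p21 cells against mVenus cells, with 7.92 ± 0.33 CPM in p16 cells with Torin2, 2.19 ± 0.179 in p21 cells, 2.6 ± 0.368 in p16 cells and 43.1 ± 3.74 in mVenus cells. Its log2 fold change was -4.06 ± 0.10 in p16 cells and -4.29 ± 0.11 in p21 cells against mVenus cells, and 1.61 ± 0.14 with Torin2 against p16 cells. ZGRF1 fell by 2.42 ± 0.18 in p16 cells and by 3.96 ± 0.23 in p21 cells, and was lower in p21 than in p16 cells (-1.54 ± 0.30).

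Some partner genes did not fall in every comparison with mVenus cells. ERCC1, which cuts DNA beside crosslinks together with XPF, had 71.6 ± 0.328 CPM in p16 cells with Torin2, 37.6 ± 3.42 in p21 cells, 97.5 ± 2.87 in p16 cells and 43.6 ± 2.43 in mVenus cells. Against mVenus cells ERCC1 rose by 1.16 ± 0.06 in p16 cells and fell slightly in p21 cells (-0.21 ± 0.06, libraries overlapping). It was lower in p21 than in p16 cells (-1.37 ± 0.06). The helicase RECQL5 rose against mVenus cells in p16 cells (0.52 ± 0.08), in p21 cells (0.57 ± 0.08) and in p16 cells with Torin2 (0.76 ± 0.08). SAMHD1, a dNTP hydrolase that also promotes resection, had 17.1 ± 0.782 CPM in p16 cells with Torin2, 126 ± 4.55 in p21 cells, 99.1 ± 12.2 in p16 cells and 80.3 ± 8.17 in mVenus cells. It rose by 0.65 ± 0.07 in p21 cells against mVenus cells and fell with Torin2, by 2.53 ± 0.09 against p16 cells and by 2.23 ± 0.09 against mVenus cells. ABRAXAS1, a subunit of the BRCA1-A complex, rose with Torin2 (1.35 ± 0.11 against p16 cells and 3.02-fold against mVenus cells) and was higher in p21 cells than in mVenus cells (0.61 ± 0.13) and in p16 cells (0.36 ± 0.13). EME2, which pairs with MUS81 as EME1 does, fell by 0.95 ± 0.08 with Torin2 against p16 cells. Against mVenus cells EME2 rose in p16 (0.46 ± 0.08) and p21 cells (0.55 ± 0.08) and fell in p16 cells with Torin2 (-0.49 ± 0.09). SPIDR, a scaffold that binds BLM, was higher in p21 than in p16 cells (0.42 ± 0.07). Against mVenus cells SPIDR fell in p16 cells (-0.46 ± 0.07) and in p16 cells with Torin2 (-0.36 ± 0.07), and was not called in p21 cells (-0.04 ± 0.06). EME2 shares 30%, ERCC1 28.6%, ABRAXAS1 25.2%, RECQL5 18.2% and SAMHD1 10.3% of their exonic bases with other genes.

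**Figure D4:**
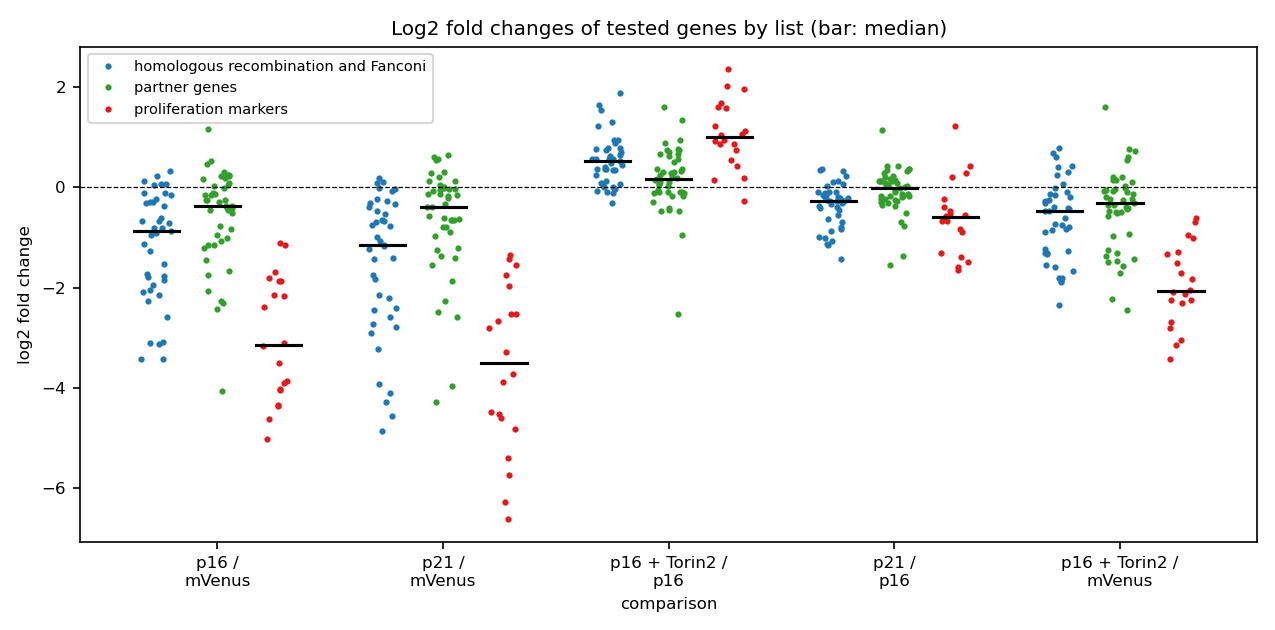
Log2 fold changes (points, one per tested gene) and their median (bars) for the 41 homologous recombination and Fanconi genes, 45 partner genes and 20 proliferation markers in 5 comparisons. In p21 cells against mVenus cells the medians were -1.15, -0.39 and -3.50, and with Torin2 against p16 cells 0.52, 0.16 and 0.99.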

How the data were processed

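Per the labels' protocols, libraries were made from oligo-dT-purified mRNA with a stranded kit. The authors deposited a count per gene for each of 12 libraries. Per the file headers, these counts were made with featureCounts 1.6.3 over GENCODE 29, without an option for strand. The submitters' processing notes name the build GRCh38.p7 and the tools FastQC 0.11.3, HISAT2, Subread and DESeq2. Without strand, reads of overlapping genes cannot be told apart. RAD50 shares 79.7%, XRCC3 76.7%, RAD54B 59.1%, RAD54L 25.1% and FANCA 23.6% of their exonic bases with other genes, and are uncertain to that extent. The authors' tables of comparisons were not used.

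After filterByExpr and TMM scaling, edgeR 4.0.16 (R 4.3.3) fitted the 12 libraries together, with 1 term for each group and 8 residual degrees of freedom. Contrasts were tested two-sided by quasi-likelihood, and p was adjusted over 14504 genes. Over all genes the biological coefficient of variation was 3.94%. The code was tested on simulated counts. Nothing in the labels says that the replicates came from separate thaws or lines, so p-values measure the spread between these cultures. CPM per kb uses the deposited exonic length. The members and lists were chosen with earlier results of these data known. Values in every library are given for BRCA1, BRCA2, FANCD2 and FANCI and, per comparison, for the 3 largest called rises and falls among genes whose libraries did not overlap and whose higher group reached 1 CPM. Of partner genes the 2 largest called rises and falls are named. HROB, RADX and FIRRM were matched by older symbols, and FAN1, SLX1A and SLX1B had too few counts for a test. Alternatives were DESeq2 size factors, upper quartile scaling, no filter, DESeq2 1.42.0, a replicate block, a fit of only the 6 libraries compared, removal of each library in turn, and genes sharing over 30% of their exonic bases left out of the counts.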

Additional observations from a re-analysis of the deposited data

How the results depend on the processing

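Over 5 comparisons, 41 genes and the alternatives, the side of the threshold was kept in 2372 cases, 63 calls were lost, 22 were gained and 0 reversed. Direction was compared only where a gene was called in the main fit or in the alternative. The count of higher genes in p16 than in mVenus cells was 2, and 1 with DESeq2, with only the 6 libraries compared, with upper quartile scaling, with a replicate block and with any library left out (1 to 1). Higher genes in p21 than in mVenus cells numbered 0, but 2 (RAD50 and NBN) without a filter and 1 (NBN) with only the 6 libraries compared, and 0 to 1 with a library left out. Lower genes with Torin2 than in p16 cells numbered 1, but 2 (SLX4 and RPA1) with DESeq2 size factors and without a filter, and 0 to 2 with a library left out. Lower partner genes with Torin2 numbered 8, but 5 with DESeq2 and 5 to 9 with a library left out. Leaving out 1 library also gave calls not listed above. Against mVenus cells, WRN fell in p16 cells without mVenus replicate 2 (adjusted p = 0.0172, range over alternatives 0.0172 to 0.349). With Torin2 against p16 cells, RAD54B rose without p16 replicate 2 (0.0347, range 0.0347 to 0.892), and without p16 replicate 3 NBN rose (0.0315, range 0.0315 to 0.677) and RPA1 fell (0.0339, range 0.0339 to 0.164). In p21 against p16 cells, RAD50 rose without p21 replicate 3 (0.0197, range 0.0197 to 0.609), and without p16 replicate 2 RECQL4 rose (0.0202, range 0.0202 to 0.248) and RMI1 fell (0.0222, range 0.0222 to 0.426). Without p16 replicate 1 SLX4 (0.0422, range 0.0422 to 0.275) and FANCF (0.0328, range 0.0328 to 0.331) fell. FANCG fell there in 5 of 12 alternatives, among them without p16 replicate 2, p21 replicate 1 or p21 replicate 2 (0.0483, 0.0403 and 0.0445, range 0.0162 to 0.393).

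Same-numbered replicates did not deviate together (correlations of -0.0822 to 0.0754). These values cannot tell unpaired samples from pairs that share little deviation. The replicate block moved 1 count by more than 1.5 times, that of higher genes in p16 cells (1). Genes under 1 CPM in p16 or p21 cells (EME1, RAD54L and RAD54B in both, BLM and RAD51AP1 in p21 cells) rest on few counts. The share of promoters matched in every window was added after seeing the data.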

Other observations

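TOP3A, on chromosome 17 from 18271428 to 18315007 in GENCODE 29, had 0 to 18 counts per library in all 4 groups, although it encodes the topoisomerase of the BLM complex. Protein-coding neighbours within 100000 bases on one side were at similar counts: SMCR8 had 1 to 10, SHMT1 0 to 5 and EVPLL 0. MIEF2, on the other side, had 1 to 15 and FLII 27 to 209. Farther out, LLGL1 had 460 to 717 and ALKBH5 888 to 1350, and beyond them MYO15A had 1 to 12. The cause was not tested.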
